A study of Mus musculus with 51 samples.

Results

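The genes of cholesterol efflux and oxysterol synthesis were followed in the prefrontal cortex (PFC) of mice after chronic intermittent ethanol vapor (CIE). They are 10 of the 24421 genes counted, namely Ch25h, Cyp27a1, Cyp46a1, Npc1, Npc2, Nr1h2, Nr1h3, Abca1, Abcg1 and Mylip, matched by symbol. They were selected on their levels and their ethanol responses in these same libraries, so the values and adjusted p-values given for them describe these mice and are no independent test of the group. RNA was measured in 51 libraries from 17 adult male C57BL/6J mice, purchased at 8 weeks of age. The 9 CIE mice were injected with ethanol (1.6 g/kg) and with pyrazole (1 mmol/kg), which blocks alcohol dehydrogenase, and then stayed in chambers with ethanol vapor at 15 to 20 mg/L of air for 16 h per day in 4 weekly cycles. The 8 control mice received saline with the same pyrazole dose and breathed air in chambers for the same hours, so pyrazole is common to both groups. Each mouse gave 3 preparations. Astrocytes were cells captured with beads against the astrocyte antigen ACSA2, microglia were captured with beads against CD11b from the cells that ACSA2 beads left behind, and total homogenate was a share of the same tissue that went through no capture. CD11b is also carried by other myeloid cells, and the beads enrich a cell type without making it pure.

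Cholesterol in the brain is made there, since lipoproteins of the blood do not cross the barrier, and it leaves cells by a few known routes. Cholesterol that enters the lysosome is handed from NPC2 to NPC1 for export, surplus cholesterol can be hydroxylated to oxysterols by CH25H, CYP27A1 or CYP46A1, and oxysterols activate the liver X receptors LXRα and LXRβ, the products of Nr1h3 and Nr1h2. These receptors raise transcription of the exporters ABCA1 and ABCG1, which load cholesterol onto apolipoproteins, and of Mylip, whose product (IDOL) marks the LDL receptor for degradation. CYP46A1 is known as an enzyme of neurons and its 24-hydroxylated product as the main form in which cholesterol leaves the brain, while CH25H is known from macrophages and is induced there by interferon.

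The libraries held 571878 to 15594154 counts assigned to genes, with a median of 5319230, and microglia libraries were the shallowest of the preparations, with a median of 2078096. Levels are CPM, counts scaled to the size of the library. Astrocyte markers summed to a median of 13548 CPM in astrocytes, 478 in microglia and 6633 in homogenate, on a scale common to all libraries. Microglia markers summed to a median of 24090 CPM in microglia, 3315 in astrocytes and 716 in the homogenate. Oligodendrocyte markers had a median of 19196 CPM in astrocytes, above the 2403 CPM of total homogenate and above the 13548 CPM of the astrocyte markers. The captured astrocytes thus also held RNA of oligodendrocytes and of microglia. Against control total homogenate, the median log2 difference in control astrocytes was 3.92 for oligodendrocyte, 2.47 for microglia and 1.54 for astrocyte markers. Neuron markers had a median of 86.2 CPM in astrocytes and 106 CPM in microglia against 6202 CPM in total homogenate. No marker list had a gene at 0 in every library of a group.

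The 250 bases before the RefSeq start of transcription (build GRCm38.p6) are shown for Ch25h and Cyp27a1, the oxysterol enzymes that were higher in CIE astrocytes. They are also shown for Abca1 and Mylip, a pair of LXR targets with lower averages in CIE microglia. Of this pair only Mylip passed the threshold of the test given below, and Abca1 did not. In the GENCODE M21 annotation of mm10, Ch25h lies at chr19:34473778-34475164 (minus strand), Cyp27a1 at chr1:74713574-74737892 (plus strand), Cyp46a1 at chr12:108334381-108362234 (plus strand), Abca1 at chr4:53030787-53159895 (minus strand), Abcg1 at chr17:31057675-31117988 (plus strand) and Mylip at chr13:45389742-45412022 (plus strand). Capitals mark the letters of motifs that were searched on both strands. The motifs found here were the TATA box (TATAAA), the CCAAT box (CCAAT), the E-box (CACGTG) and a loosened form of the direct repeat bound by LXR (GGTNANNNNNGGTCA), whose letters were loosened after the Abca1 window had been read.
Ch25h, chr19:34475149-34475398, minus strand: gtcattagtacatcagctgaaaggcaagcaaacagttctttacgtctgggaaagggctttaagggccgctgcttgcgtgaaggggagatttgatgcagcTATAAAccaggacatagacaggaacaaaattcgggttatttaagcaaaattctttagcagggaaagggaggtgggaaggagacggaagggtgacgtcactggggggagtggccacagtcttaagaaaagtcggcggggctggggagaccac
Cyp27a1, chr1:74713285-74713534, plus strand: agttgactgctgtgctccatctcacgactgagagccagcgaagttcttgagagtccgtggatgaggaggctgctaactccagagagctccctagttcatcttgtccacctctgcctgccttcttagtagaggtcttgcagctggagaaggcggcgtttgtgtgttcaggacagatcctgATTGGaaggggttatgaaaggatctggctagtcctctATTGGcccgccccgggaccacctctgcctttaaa
Abca1, chr4:53159896-53160145, minus strand: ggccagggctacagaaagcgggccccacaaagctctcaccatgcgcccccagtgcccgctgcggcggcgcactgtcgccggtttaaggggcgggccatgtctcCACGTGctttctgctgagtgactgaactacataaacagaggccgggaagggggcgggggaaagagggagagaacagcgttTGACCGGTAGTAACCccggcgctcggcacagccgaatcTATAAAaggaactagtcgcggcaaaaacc
Mylip, chr13:45389492-45389741, plus strand: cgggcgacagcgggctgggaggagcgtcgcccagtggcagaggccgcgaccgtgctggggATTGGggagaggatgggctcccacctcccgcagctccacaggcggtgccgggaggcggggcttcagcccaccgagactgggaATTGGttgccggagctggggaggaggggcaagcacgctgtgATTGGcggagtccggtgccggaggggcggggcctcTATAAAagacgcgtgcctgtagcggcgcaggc

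The Abca1 window held the loosened repeat on the strand opposite to the one printed, 67 to 53 bases before the start, and 0.177% of the 32851 promoter windows of this length held it. No window of the 8 members found in the table (Abcg1 and Npc1 were not matched) held the strict repeat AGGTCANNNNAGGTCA, which was in 0.015% of all windows. The Abca1 window also held an E-box (6.0% of all windows). A TATA box (12.4% of all windows) lay 29 bases before the start of Abca1, 32 bases before that of Mylip and 151 bases before that of Ch25h. CCAAT boxes (33.8% of all windows) were found 3 times in the Mylip window and 2 times in the Cyp27a1 window, always on the strand opposite to the one printed, and also in those of Cyp46a1 and Npc2. The interferon-stimulated response element GAAANNGAAA (3.0% of all windows), the sterol regulatory element TCACNCCAC (1.1%), the glucocorticoid response element AGAACANNNTGTTC (0.03%) and the half-site AGGTCA (14.0%) had no match in the members' windows. The GC box GGGCGG (32.7% of all windows), not put in capitals and free to overlap the other motifs, was found in the windows of Cyp46a1, Cyp27a1, Abca1, Mylip and Npc2.

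In control mice, all 9 members with enough counts for the test (all but Ch25h) differed between every pair of preparations, in a comparison where most genes differ. Between astrocytes and total homogenate 8 were higher and 1 lower in astrocytes, where 41% of all genes tested were higher and 37.8% lower. Between microglia and total homogenate 8 were higher and 1 lower in microglia (39.8% and 44.6% of all genes). Between microglia and astrocytes 6 were higher and 3 lower in microglia (35.3% and 36.6% of all genes).

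Levels were compared between genes only per kb of the principal transcript, on the scale common to all libraries. Cyp46a1 was highest in total homogenate, with 143 ± 22.4 CPM per kb (SD, n = 8), 18.8 ± 2.74 in astrocytes and 4.03 ± 1.36 in microglia. It was the one member lower in both captured preparations, 7.19-fold lower in astrocytes (log2 difference -2.85, SE 0.122, edgeR adjusted p = 2.7e-18) and 34.9-fold lower in microglia (log2 difference -5.13, SE 0.156, adjusted p = 4.8e-21) than in total homogenate. Mylip had the opposite order, with 149 ± 39.3 CPM per kb (microglia), 23.5 ± 11.5 (astrocytes) and 6.20 ± 0.623 (total homogenate). It was 25.2-fold higher in microglia than in total homogenate (log2 difference 4.65, SE 0.267, adjusted p = 9.2e-16). Per kb, Mylip was the highest member in microglia, Npc1 in astrocytes (123 ± 15.0) and Cyp46a1 in total homogenate, though Npc2 in microglia (119 ± 17.2) lay within the spread of Mylip.

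Abca1, the exporter that loads lipid-poor apolipoproteins, had 105 ± 30.4 CPM per kb in microglia, 35.4 ± 7.34 in astrocytes and 7.83 ± 1.27 in the homogenate (SD, n = 8). Abcg1, which exports cholesterol to larger lipoprotein particles, followed the same order with a narrower span, 51.8 ± 10.9, 31.4 ± 3.84 and 17.1 ± 1.40 CPM per kb. Npc2, the soluble lysosomal carrier, had 119 ± 17.2 CPM per kb in microglia, 47.7 ± 4.83 in astrocytes and 16.0 ± 2.20 in the homogenate. Its membrane partner Npc1 was instead highest in astrocytes, with 65.0 ± 17.4 CPM per kb in microglia and 20.4 ± 2.20 in the homogenate, and was 1.93-fold lower in microglia than in astrocytes (log2 difference -0.94, SE 0.121, adjusted p = 5.7e-08). The partners of lysosomal export thus had opposite orders in the captured preparations.

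Of the receptors, Nr1h2 (LXRβ) was the more abundant in every preparation, with 69.8 ± 12.3 CPM per kb in microglia, 43.4 ± 4.86 in astrocytes and 30.7 ± 3.15 in the homogenate. Nr1h3 (LXRα) had 4.88 ± 1.01 CPM per kb in astrocytes, 2.94 ± 1.28 in microglia and 1.62 ± 0.553 in the homogenate. It was 1.85-fold lower in microglia than in astrocytes (log2 difference -0.89, SE 0.249, adjusted p = 0.0022). Cyp27a1, the mitochondrial sterol 27-hydroxylase, had 30.04 ± 9.19 CPM per kb in microglia, 19.7 ± 2.82 in astrocytes and 3.31 ± 0.789 in the homogenate. Ch25h was the lowest member everywhere, with 0.639 ± 0.385 CPM per kb in astrocytes, 0.616 ± 0.592 in microglia and 0.364 ± 0.205 in the homogenate. Its counts were too low for the test, and in a fit without the filter on low counts its order between preparations was not resolved (smallest adjusted p = 0.0664, microglia against total homogenate).

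**Figure D1:**
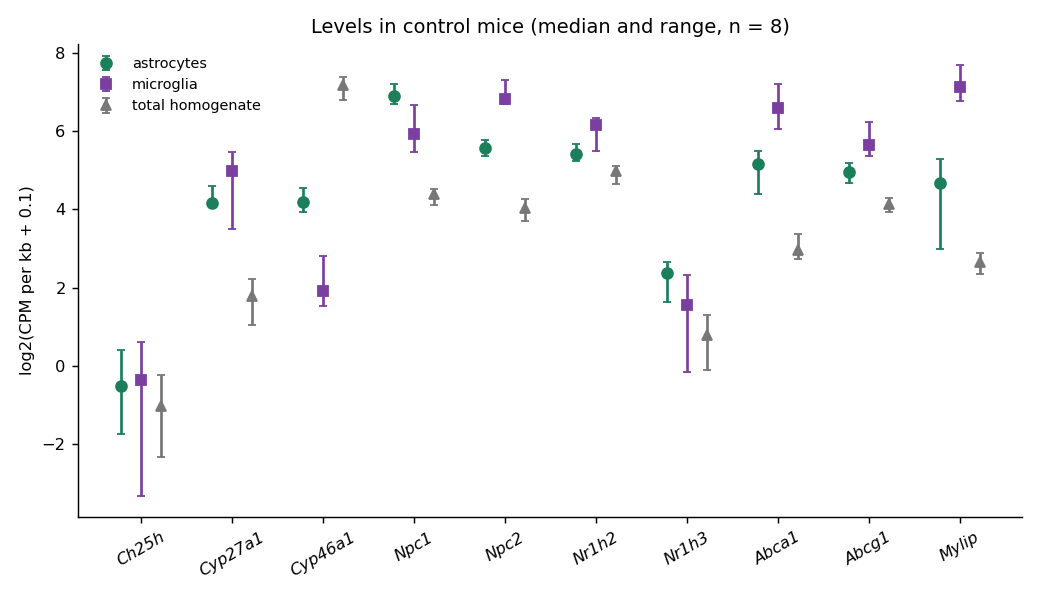
Levels of the 10 genes in the 8 control mice, as log2(CPM per kb + 0.1) on the scale common to all libraries, with points for the median and bars from the lowest to the highest mouse. Cyp46a1 was highest in total homogenate, Npc1 and Nr1h3 in astrocytes, and the other tested genes in microglia.

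In astrocytes, all 10 members were tested and 3 were called (edgeR quasi-likelihood test, adjusted p under 0.05 over 12878 genes), where 5.13% of all genes were called. Ch25h and Cyp27a1, both oxysterol enzymes, rose, where 2.91% of all genes rose, and Cyp46a1, the third, fell, where 2.22% fell. The median log2 fold change of the members was 0.12, against 0.0033 over all genes tested. Since the members were chosen with this contrast known, nothing is read from that share.

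Ch25h, cholesterol 25-hydroxylase, had 0.306 to 1.89 CPM with a median of 0.917 in control astrocytes and 1.98 to 9.87 CPM with a median of 3.77 in CIE astrocytes. The groups did not overlap, and the highest value was that of mouse 39. The share of all genes whose groups do not overlap was not computed, so nothing is read from this separation. The rise was 5.09-fold (log2 fold change 2.35, SE 0.376, edgeR adjusted p = 0.00364). The counts behind it were low, 1 to 8 per control library and 9 to 100 per CIE library, 33 and 289 in all. The filter asks for enough counts in 8 libraries, and it was the CIE libraries that carried Ch25h past it. Within the ranges of mouse numbers (under 10, 19 to 26 and 35 to 41) the difference in mean log2 CPM was 1.36, 1.93 and 2.25. In a bulk preparation, a change in RNA per cell and a change in the number of cells of a type cannot be told apart.

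Macrophages of the brain's borders and monocytes are a known source of CH25H, and their 9 markers summed to 57.3 to 226 CPM in control and 88.8 to 335 CPM in CIE astrocytes. Of the 8 tested, 2 rose, and Cd163, a scavenger receptor of border macrophages, went from 12.2 ± 5.20 to 31.7 ± 14.8 CPM (log2 fold change 1.37, SE 0.281, adjusted p = 0.0103). Mrc1, the first marker of the list, differed in mean log2 CPM by 0.40, 0.52 and -0.02 within the ranges of mouse numbers, so the markers did not all move alike. With the mean level of these markers as a covariate, the log2 fold change of Ch25h was 2.55 (SE 0.449, edgeR adjusted p = 0.0125). Cyp27a1 (0.32, adjusted p = 0.206) and Cyp46a1 (-0.26, adjusted p = 0.211) were no longer called. The covariate was chosen after seeing the data, and Ch25h passed the filter through its CIE libraries. Nothing is therefore read from the adjusted p of Ch25h in this fit. The count of all genes called also fell with this covariate, as given in the last section.

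Neutrophil markers summed to 53.2 to 205 CPM in control and 83.9 to 298 CPM in CIE astrocytes. Most of that sum was Csf3r, a receptor that microglia also express, which had a mean of 119.9 CPM in control and 113 CPM in CIE and was named after its values were seen. The other 9 of the 10 were too low to be tested, and each had a higher mean log2 CPM in CIE than in control mice in every range of mouse numbers. The smallest of these differences was 0.016, among the 2 control and 2 CIE mice numbered under 10, at counts near 0. S100a8 went from 0.398 ± 0.387 to 4.43 ± 8.24 CPM and S100a9 from 0.798 ± 1.09 to 6.70 ± 11.8 CPM (SD, n = 8 and 9). With the neutrophil markers as a covariate the log2 fold change of Ch25h was 2.30 (SE 0.469, edgeR adjusted p = 0.0464), from which nothing is read for the same reasons. Cyp27a1 (0.46, SE 0.152, adjusted p = 0.190) and Cyp46a1 (-0.38, SE 0.132, adjusted p = 0.208) were no longer called. Most of all genes called also lost their call with this covariate (counts in the last section), so the loss is not particular to these genes. Which cells the RNA came from was not tested.

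Cyp27a1 had 36.4 to 51.2 CPM with a median of 37.9 in control astrocytes and 46.0 to 77.0 CPM with a median of 54.3 in CIE astrocytes. All 9 CIE mice were above the control median and 5 were above every control mouse. The rise was 1.37-fold (log2 fold change 0.45, SE 0.114, adjusted p = 0.0263). The adjusted p moved to between 0.0501 and 0.0699 when mouse 23, 24, 25, 26, 35 or 36 was left out, with log2 fold changes of 0.39 to 0.43. Within the ranges of mouse numbers the difference was 0.31, 0.47 and 0.42. Oligodendrocyte markers summed to 17121 to 24493 CPM in control and 17897 to 24992 CPM in CIE astrocytes. Their log2 fold changes were positive for 6 of 7, with 1 past the threshold. They were not fitted as a covariate in astrocytes, so their part in the changes of Cyp27a1 and Cyp46a1 was not tested.

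Cyp46a1 had 36.02 to 53.7 CPM with a median of 42.5 in control astrocytes and 25.9 to 40.7 CPM with a median of 34.0 in CIE astrocytes. Every CIE mouse was below the control median and 6 were below every control mouse. The log2 fold change was -0.38 (SE 0.0975, adjusted p = 0.0300). Without mouse 22, 25, 26 or 36 the adjusted p was 0.0540 to 0.0660, with log2 fold changes of -0.37 to -0.34. Within the ranges of mouse numbers the difference was -0.22, -0.43 and -0.36. Neuron markers summed to 55.0 to 315 CPM in control and 77.7 to 194 CPM in CIE astrocytes, with log2 fold changes below 0 for 6 of 7 tested and a median of -0.58, and none of the 7 fell past the threshold while 1 rose. With the neuron markers as a covariate the log2 fold change of Cyp46a1 was -0.35 (adjusted p = 0.0562).

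**Figure D2:**
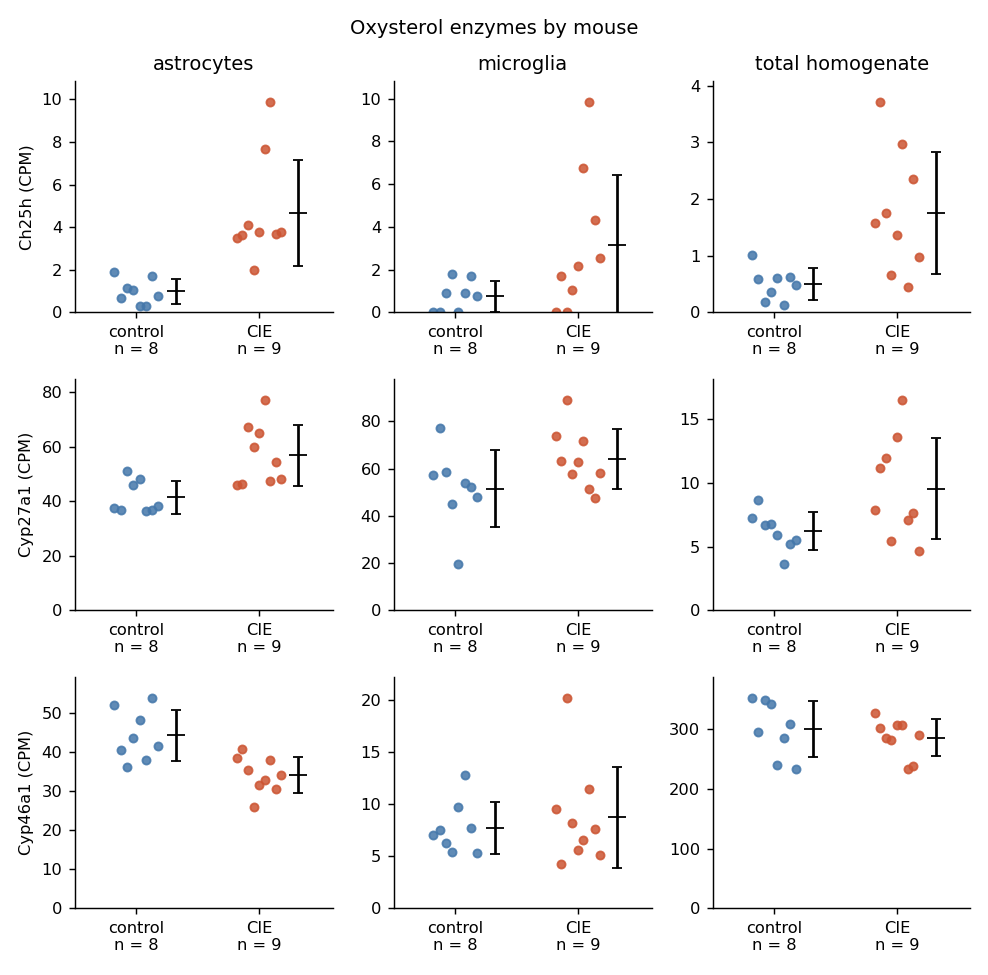
CPM of the 3 oxysterol enzymes in each mouse, with control (blue, n = 8) and CIE (red, n = 9) in each of the 3 preparations, and the mean with SD beside the points, which run from left to right by mouse number. In astrocytes the highest control value of Ch25h is 1.89 CPM and the lowest CIE value is 1.98 CPM. The share of all genes separated in this way was not computed. Cyp46a1 has a mean of 301 CPM in control total homogenate against 44.2 CPM in control astrocytes.

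The LXR targets, the receptors and the lysosomal pair were not called in astrocytes. Abcg1 had 163 to 239 CPM with a median of 201 in control and 198 to 302 CPM with a median of 250 in CIE astrocytes, and 5 of 9 CIE mice were above every control mouse (log2 fold change 0.28, SE 0.0927, adjusted p = 0.0872). The adjusted p for Abcg1 was 0.0393 without mouse 8 (log2 fold change 0.30). Abca1 had 241 to 502 CPM with a median of 406 in control and 253 to 399 CPM with a median of 305 in CIE astrocytes, all 9 CIE mice below the control median (log2 fold change -0.32, SE 0.127, adjusted p = 0.148). Its lowest control mouse was mouse 3, without which the adjusted p was 0.0318 (log2 fold change -0.41). The pair of exporters therefore had fold changes of opposite sign in astrocytes, neither past the threshold.

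Mylip had 26.9 to 130 CPM in control and 40.03 to 91.7 CPM in CIE astrocytes (log2 fold change -0.37, SE 0.253, adjusted p = 0.428). The control mice numbered under 10 were the lowest, at 28.4 and 26.9 CPM. The difference within the ranges of mouse numbers was 0.57, -0.29 and -0.74, so its sign was not the same throughout. Mylip was 6.15-fold higher in control microglia than in control astrocytes, and microglia markers in the astrocyte libraries spanned 1502 to 6073 CPM in control and 2589 to 5894 CPM in CIE mice. With the microglia markers as a covariate the log2 fold change of Mylip in astrocytes was -0.32 (SE 0.137, adjusted p = 0.165). Nr1h2 (log2 fold change 0.11), Nr1h3 (0.14), Npc1 (-0.06) and Npc2 (0.13) had adjusted p-values of 0.306 to 0.710.

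In microglia, 9 members were tested and 1 was called, where 3.47% of the 10761 genes tested were called. Mylip fell, where 1.15% of all genes fell, and no member rose, where 2.31% rose. The median log2 fold change of the members was -0.05, against -0.0052 over all genes tested.

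Mylip had 304 to 554 CPM with a median of 398 in control microglia and 225 to 293 CPM with a median of 268 in CIE microglia. All 9 CIE mice were below every control mouse, and the share of all genes separated in this way was not computed. The log2 fold change was -0.62 (SE 0.120, edgeR adjusted p = 0.00745), a level 0.650 times that of control. Within the ranges of mouse numbers the difference was -0.37, -0.37 and -0.96, and the control mice numbered 35 to 37 were the 3 highest, at 470 to 554 CPM. The SD was 96.6 CPM in control and 20.8 CPM in CIE microglia.

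Markers of other cells moved in the same libraries. Neutrophil markers summed to 534 to 1103 CPM in control and 697 to 6574 CPM in CIE microglia, and 8 of 9 tested rose. Microglia markers summed to 22136 to 32919 CPM in control and 15688 to 23756 CPM in CIE microglia, with negative log2 fold changes for all 8 and 1 past the threshold. Oligodendrocyte markers summed to 1925 to 6537 CPM in control and 2128 to 8453 CPM in CIE microglia, with 1 of 7 past the threshold. With the neutrophil markers as a covariate the log2 fold change of Mylip was -0.59 (adjusted p = 0.0887), with the border macrophage and monocyte markers -0.60 (adjusted p = 0.00760), with the microglia markers -0.76 (adjusted p = 0.0439) and with the oligodendrocyte markers -0.63 (adjusted p = 0.0478). The count of all genes called also fell with the neutrophil, microglia and oligodendrocyte markers, as given in the last section.

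Abcg1 had 229 to 398 CPM with a median of 261 in control microglia and 169 to 236 CPM with a median of 207 in CIE microglia. All 9 CIE mice were below the control median and 6 were below every control mouse. It missed the threshold (log2 fold change -0.41, SE 0.115, adjusted p = 0.0521), with adjusted p-values of 0.0385 to 0.0477 without mouse 3, 6 or 19 (log2 fold changes of -0.44 to -0.43). Without mouse 22, its highest control mouse, the log2 fold change was -0.31, and leaving out any 1 mouse gave adjusted p-values of 0.0385 to 0.0940. Abca1 had 634 to 1460 CPM in control and 306 to 1238 CPM in CIE microglia, a wide spread in both groups (log2 fold change -0.45, SE 0.251, adjusted p = 0.386). Npc2 had 317 to 483 CPM in control and 273 to 341 CPM in CIE microglia, with 7 CIE mice below every control mouse (log2 fold change -0.24, SE 0.0918, adjusted p = 0.169). Without mouse 19, its highest control mouse, the log2 fold change of Npc2 was -0.15.

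The other members of microglia had adjusted p-values of 0.442 to 0.978. Cyp27a1 had 51.5 ± 16.2 CPM in control (SD, n = 8) and 64.0 ± 12.6 CPM in CIE microglia (SD, n = 9). Nr1h2 and Npc1 had log2 fold changes of 0.02 and -0.05, and Nr1h3 and Cyp46a1, at 5.23 and 7.71 CPM on average in control, had 0.08 (SE 0.352) and 0.05 (SE 0.267). Ch25h did not pass the filter on low counts. It had no count in 3 control and 2 CIE libraries, where 3 counts would have been a level of 2.05 to 5.04 CPM, and 2.167 CPM in the median CIE mouse. Mice 39 and 26 had the highest values, 9.84 and 6.74 CPM, against at most 1.79 CPM in control. Without the filter the log2 fold change was 1.85 (SE 0.596, adjusted p = 0.113).

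**Figure D3:**
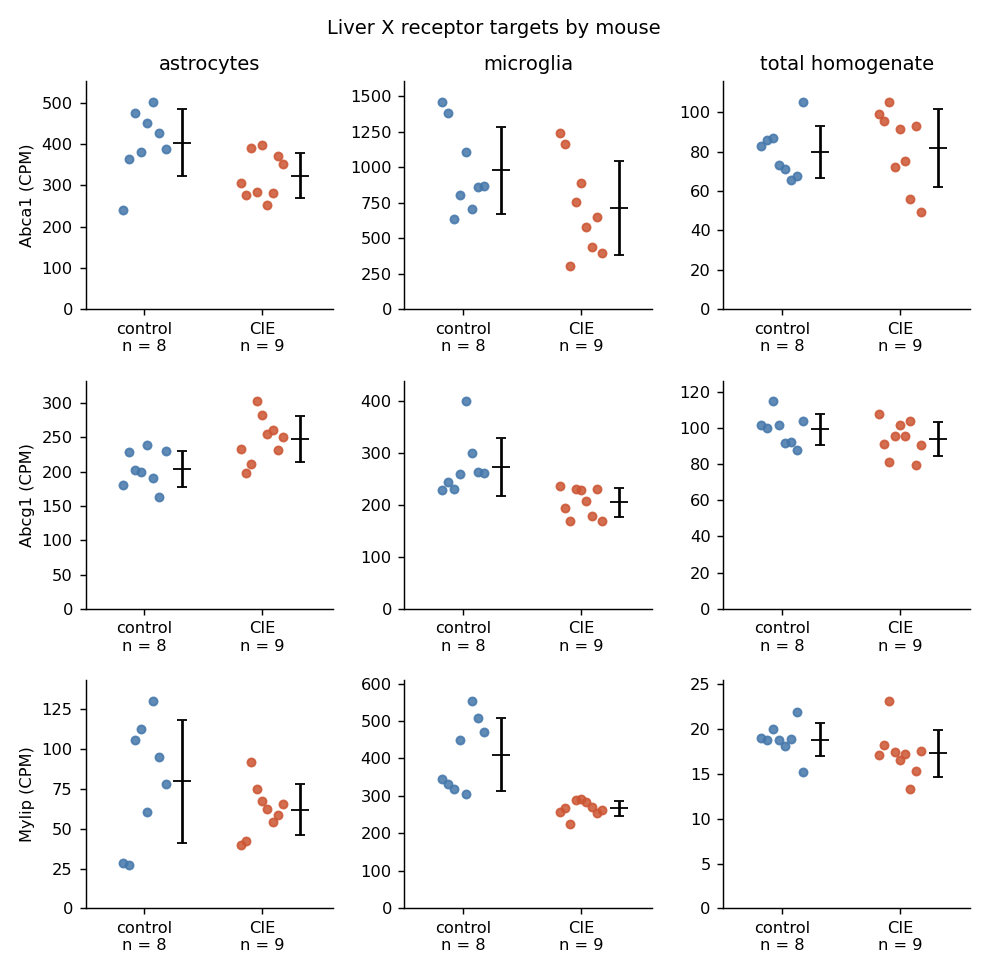
CPM of the LXR targets Abca1, Abcg1 and Mylip in each mouse, with control (blue, n = 8) and CIE (red, n = 9) in each of the 3 preparations, and the mean with SD beside the points, which run from left to right by mouse number. In microglia the highest CIE value of Mylip is 293 CPM and the lowest control value is 304 CPM, and the share of all genes separated in this way was not computed. The mean of Abcg1 is higher in CIE than control astrocytes and lower in CIE than control microglia.

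In total homogenate, 9 members were tested and 0 were called, where 0.25% of the 13982 genes tested were called. Cyp27a1 had 3.63 to 8.62 CPM in control and 4.68 to 16.5 CPM in CIE mice, with 4 CIE mice above every control mouse (log2 fold change 0.60, SE 0.235, adjusted p = 0.384). Ch25h was kept out by the filter, with 1 to 9 counts in control and 3 to 42 in CIE libraries. Its levels were 0.132 to 1.02 CPM with a median of 0.540 in control and 0.454 to 3.71 CPM with a median of 1.58 in CIE mice, and 6 CIE mice were above every control mouse. Without the filter the log2 fold change of Ch25h was 1.78 (SE 0.422, edgeR adjusted p = 0.112), and DESeq2, which called 1.26% of the genes it adjusted, called it (log2 fold change 1.82, adjusted p = 0.0114). Within the ranges of mouse numbers the difference was 1.41, 1.57 and 1.11. The border macrophage and monocyte markers summed to 7.99 to 48.5 CPM in control and 8.47 to 167 CPM in CIE total homogenate. Neutrophil markers summed to 12.4 to 39.2 CPM in control and 12.6 to 784 CPM in CIE mice, with positive log2 fold changes for all 6 tested (median 3.32) and 0 called. Oligodendrocyte markers summed to 970.3 to 3591 CPM in control and 1531 to 4678 CPM in CIE mice, with positive log2 fold changes for all 7 and 0 called. With the neutrophil markers as a covariate the log2 fold change of Cyp27a1 was 0.23 (adjusted p = 0.485), and with the oligodendrocyte markers 0.40 (adjusted p = 1.000). The part of these markers in the Ch25h values of total homogenate was not tested.

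The other 8 members of total homogenate had log2 fold changes of -0.12 to 0.21. Cyp46a1 had 233 to 352 CPM in control and 234 to 328 CPM in CIE mice (log2 fold change -0.07, SE 0.0967, adjusted p = 0.906). Mylip had 15.2 to 21.9 CPM in control and 13.3 to 23.1 CPM in CIE mice (log2 fold change -0.12, SE 0.0947, adjusted p = 0.784).

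**Figure D4:**
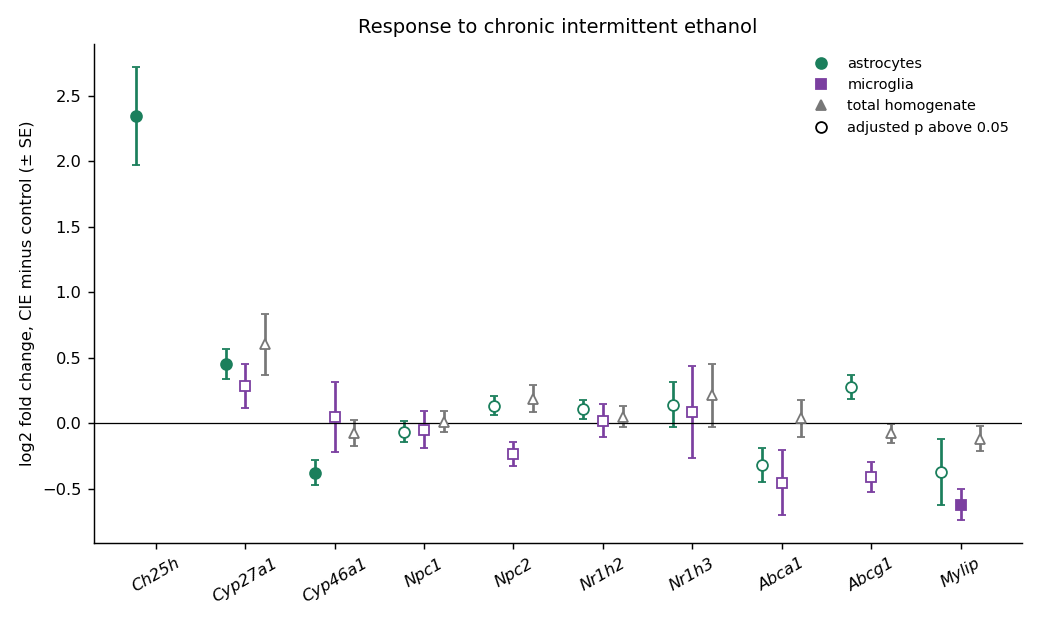
Log2 fold change of CIE against control with its SE for the 10 genes in astrocytes, microglia and total homogenate, with filled symbols for an adjusted p under 0.05. The filled symbols are Ch25h (2.35), Cyp27a1 (0.45) and Cyp46a1 (-0.38) in astrocytes and Mylip (-0.62) in microglia, and Ch25h has no symbol where it was not tested.

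Whether a response differed between preparations was tested as an interaction over all 51 libraries, without pairing them by mouse. Between microglia and astrocytes 1 member differed, where 0.529% of the 14379 genes tested differed. It was Abcg1, whose response was lower in microglia by 0.71 on the log2 scale (difference -0.71, SE 0.139, adjusted p = 0.00804). The sign of its mean change was opposite in each of the ranges of mouse numbers, 0.09, 0.29 and 0.36 in astrocytes and -0.14, -0.47 and -0.52 in microglia. Mylip, called in microglia and not in astrocytes, was not shown to differ between them (difference -0.28, SE 0.264, adjusted p = 0.775). The same held for Ch25h (-0.48, SE 0.735, adjusted p = 0.886), Cyp27a1 (-0.20, SE 0.249, adjusted p = 0.855) and Cyp46a1 (0.37, SE 0.233, adjusted p = 0.596).

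Between microglia and total homogenate 0 members differed, where 0.828% of all genes did. Npc2 came closest (difference -0.44, SE 0.128, adjusted p = 0.0944). Between astrocytes and total homogenate 0 members differed, where 0.00695% of all genes did, and Abcg1 had the smallest adjusted p (difference 0.36, SE 0.138, adjusted p = 0.818). The difference for Ch25h there was 0.56 (SE 0.685, adjusted p = 1.000), so a rise of the same size in both was not separated from a larger one in astrocytes.

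A list of 47 other genes of the pathway was read beside the members. In astrocytes 44 were tested, 2 rose and 1 fell, where 2.91% of all genes rose and 2.22% fell, with a median log2 fold change of -0.03. Nceh1, a hydrolase of stored cholesterol esters, went from 37.9 ± 4.15 to 53.3 ± 8.38 CPM (log2 fold change 0.50, SE 0.0975, adjusted p = 0.00873). Scd1, a fatty acid desaturase and an LXR target, went from 419 ± 91.2 to 605 ± 109 CPM (log2 fold change 0.53, SE 0.133, adjusted p = 0.0260). Abcg4, a sterol exporter close in sequence to ABCG1, went from 24.9 ± 2.72 to 18.1 ± 2.84 CPM (log2 fold change -0.46, SE 0.0997, adjusted p = 0.0126), with 8 of 9 CIE mice below every control mouse. Of the 10 other LXR targets tested, Scd1 was the only one called. None of 6 LXR partners and coregulators was called, Rxra having the smallest adjusted p, and none of 6 genes of oxysterol breakdown and sensing was called, Fdxr having the smallest.

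In microglia 40 of the 47 were tested, 2 rose and 1 fell, where 2.31% of all genes rose and 1.15% fell, with a median log2 fold change of 0.05. Vldlr, a lipoprotein receptor whose protein IDOL also marks for degradation, went from 13.6 ± 3.89 to 30.3 ± 14.3 CPM of RNA (log2 fold change 1.18, SE 0.262, adjusted p = 0.0172). Its response differed from that of astrocytes by 1.27 (adjusted p = 0.00644) and from that of total homogenate by 1.34 (adjusted p = 0.00185) on the log2 scale. Over the ranges of mouse numbers, its mean log2 CPM was 7.13 to 7.29 in control astrocytes and 3.39 to 3.98 in control microglia, each scaled within its preparation. The part of other cells in the rise of Vldlr was not tested. Abca2, a lipid transporter abundant in oligodendrocytes, went from 328 ± 99.3 to 577 ± 193 CPM (log2 fold change 0.82, SE 0.206, adjusted p = 0.0305), in the libraries whose oligodendrocyte markers are given above. Gpr183, the receptor for an oxysterol made from the product of CH25H, went from 200 ± 33.6 to 143 ± 25.5 CPM (log2 fold change -0.48, SE 0.119, adjusted p = 0.0303), every CIE mouse below the control median. None of 10 other LXR targets tested was called, Arl4c having the smallest adjusted p, none of 6 partners and coregulators, Rxrb having the smallest, and none of 11 genes of intracellular transport and storage, Scarb2 having the smallest.

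In total homogenate 46 of the 47 were tested and 0 were called. The smallest adjusted p in each list was that of Lpl, Rxra, Apod, Gramd1c and Cyp39a1. In control mice 32 of 45 were higher and 8 lower in astrocytes than in total homogenate (41% and 37.8% of all genes), and 18 were higher and 19 lower in microglia (39.8% and 44.6% of all genes).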

How the data were processed

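The deposited counts of 51 libraries (8 control and 9 CIE mice, 3 preparations each) are whole counts per gene symbol. Per the labels, the authors made poly(A) libraries with a directional kit and processed the reads with cutadapt 1.8, STAR 2.5.0a (build mm10), Picard 1.141 and HTSeq 0.6.1p1. Taking out duplicates without molecular identifiers can lower the counts of abundant genes. The strand setting and the annotation release are not given in the sources used here, and Npc1, Nr1h3, Abcg1 and Ch25h overlap other annotated genes, so their counts may include or lack shared reads. Between 22.1% and 67.1% of the counts in a file were assigned to no gene and were left out. Samples that the authors had excluded were not analysed here.

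The members and gene lists were chosen with earlier results of these data known. CIE was compared with control separately within astrocytes, microglia and total homogenate by the quasi-likelihood test of edgeR 4.0.16 (R 4.3.3), after filterByExpr and TMM scaling, with Benjamini-Hochberg adjustment over all genes and a threshold of 0.05. SE was taken as the absolute log2 fold change divided by the square root of F. Levels between preparations were fitted over the control libraries, and differences of response as interaction terms over all 51 libraries. Named genes were the 10 members and, of the other pathway genes, those called (at most 4 per list) or else the one with the smallest adjusted p. Of markers, at most 2 per list are named, except that Csf3r of the neutrophil list was added after its values were seen. Transcript lengths and positions came from GENCODE M21 and promoter windows from RefSeq. The 3 preparations came from the same animal. The tests reported between preparations and of differences of response did not use this pairing and treated the libraries as independent. The mouse as a block was an alternative. Same-mouse deviations from the group means correlated over genes at medians of 0.112 (astrocytes and total homogenate), 0.039 (microglia and total homogenate) and 0.149 (microglia and astrocytes) over 17 mice. Alternatives were DESeq2 1.42.0, RLE scaling, no filter, the range of mouse numbers or marker levels as covariates, the mouse as a block, and leaving out mice. Tested on simulated counts, the fit recovered 62.7%, 34.8% and 38.8% of genes with a true log2 change of 0.5 in astrocytes, microglia and total homogenate, and 93.9%, 93.9% and 90.9% of those with a change of 1. The share of false calls was 2.3%, 4.46% and 8.7% in the same order, the last above the threshold of 0.05. Floors of 3 counts cover counting error only. Figures were drawn with matplotlib 3.10.9.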

Additional observations from a re-analysis of the deposited data

Results flagged for a closer look

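The response of Abcg1 to CIE differed between microglia and astrocytes by an interaction test (difference -0.71 on the log2 scale). The response of Vldlr differed between microglia and astrocytes (1.27) and between microglia and total homogenate (1.34) by the same test.

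Of 60 groups of 8 or 9 mice (10 members, 3 preparations, control and CIE), 6 held a mouse far from the others by Dixon's 95% criterion. Chance gives this in about 1 of 20 independent groups of normally distributed values. The values here were CPM without a log scale and the groups share libraries, so the 6 are not set against that rate. In control microglia, mouse 22 had 398 CPM of Abcg1 against 229 to 298 in the others, and 488 CPM of Npc1 against 214 to 335. In control microglia, mouse 19 had 483 CPM of Npc2 against 317 to 375. In CIE microglia, mouse 23, the library with the fewest counts, had 20.1 CPM of Cyp46a1 (12 counts) against 4.23 to 11.5. In CIE total homogenate, mouse 23 had 23.1 CPM of Mylip against 13.3 to 18.2. In CIE astrocytes, mouse 8 had 22.6 CPM of Nr1h3 against 8.35 to 12.2.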

How the results depend on the processing

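Of 490 values of single genes under other settings, 476 were labelled as unchanged in their call, and 0 as a called value with its sign reversed. A change of sign where neither fit called the gene, or a value without an adjusted p, counted as unchanged. In astrocytes 3 members were called, 1 to 4 without 1 mouse, and the count over all genes (661) was 354 to 1001 without 1 mouse, 1157 with DESeq2, 1129 with the range of mouse numbers, 1082 with microglia markers, 188 with border macrophage markers and 33 with neutrophil markers as a covariate, and 1132 without the mice numbered under 10. In microglia 1 member was called, 1 to 2 without 1 mouse, 2 with DESeq2, 2 with the range of mouse numbers and 2 without the mice numbered under 10 (Abcg1 being the added gene), and 0 with neutrophil markers as a covariate. The count over all genes (373) was 182 to 684 without 1 mouse, 767 with DESeq2, 775 with the range, 727 without the mice numbered under 10, 68 with neutrophil markers, 32 with microglia markers and 68 with oligodendrocyte markers. In total homogenate 0 members were called, also without any 1 mouse, and 1 with DESeq2 (Ch25h). The count over all genes (35) was 15 to 71 without 1 mouse, 204 with DESeq2, 81 with the range, 153 with neuron markers, 168 with border macrophage markers, 6 with oligodendrocyte markers and 7 without the mice numbered under 10. For the difference of responses, the count over all genes was 0 with RLE scaling and 5 with DESeq2 between astrocytes and total homogenate (1), 248 with DESeq2 between microglia and total homogenate (119), where DESeq2 called 1 member (Npc2, adjusted p = 0.0241), and 44 without the filter and 182 with DESeq2 between microglia and astrocytes (76).

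With the mouse as a replicate block, the count of members called stayed at 9 in each comparison of preparations and at 0, 0 and 1 for the differences of response, and the difference for Abcg1 between microglia and astrocytes was -0.71 (adjusted p = 0.00968). The replicate block changed no call of a member. Single-gene calls also changed for Abcg1 of astrocytes, with DESeq2 (adjusted p = 0.0443) and with endothelial markers as a covariate (0.0491), and for Abca1 of astrocytes, with border macrophage markers (0.0350) and without the mice numbered under 10 (0.0495). The covariates for border macrophage and neutrophil markers in astrocytes and total homogenate, for neuron and endothelial markers in astrocytes, for oligodendrocyte markers, and for microglia markers in microglia, and the fit without the mice numbered under 10 were chosen after seeing the data. The causes of these changes were not tested. Depth limits Ch25h most, with no count in 5 microglia libraries.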
